A study of Homo sapiens with 15 samples.

Results

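The miRNAs described here are the mature arms of miR-7, chosen by name as every entry of the count tables that starts with hsa-miR-7-. These are hsa-miR-7-5p, hsa-miR-7-1-3p and hsa-miR-7-2-3p (written without the prefix from here on), 3 of the 2424 miRNAs listed in either table, and all 3 are among the 2183 miRNAs listed in both. Earlier results of these data, in which miR-7-5p was lower after FTO knockdown, were known when the family was picked. The knockdown values are therefore given as a description without a test, and tests are given for the immunoprecipitation. The authors had already listed miR-7-2-3p as enriched with the m6A antibody over IgG in these data. Its test in that comparison is thus a second look at the same counts and not an independent check. Small RNA came from FTO1C1, FTO2D4 and FTO3C3, 3 derivatives of the human embryonic kidney line HEK293. For the knockdown each line was used uninduced. Each was transfected with 10 nM of scrambled siRNA or of siRNA against FTO, an m6A demethylase, and harvested after 48 h. A separate experiment used small RNA of the same lines, with no siRNA or induction stated for it. This RNA was sequenced as input, after precipitation with an antibody against N6-methyladenosine (m6A), and after precipitation with an IgG isotype control. Each of the 5 groups holds 3 libraries, 1 per cell line, so p-values speak for these lines only. In the fits over all miRNAs the line is a block, and the spread behind p is drawn toward a trend shared by all miRNAs. It is thus only partly the spread of the miRNA itself over the lines, least so for IgG against input. The permutation tests compare groups without pairing by line.

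miR-7 is a deeply conserved miRNA known from neurons and from endocrine cells such as those of the pancreatic islet. Its 5p arm is the strand usually loaded into the silencing complex, where bases 2 to 8 (the seed) pair with target mRNAs such as that of the EGF receptor. In humans several unlinked genes yield the same 5p arm, while their 3p arms differ and carry the number of the precursor. A read of miR-7-5p therefore cannot be assigned to a precursor, whereas a read of a numbered 3p arm can. m6A is a methyl mark on adenosine that the enzyme FTO can remove.

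The mature sequences are shown because the results turn on how alike the arms are. They were taken from RefSeq (GRCh38.p14), in which all 3 names were found, and capitals mark the seed.
miR-7-5p: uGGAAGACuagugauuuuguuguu
miR-7-1-3p: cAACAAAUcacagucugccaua
miR-7-2-3p: cAACAAAUcccagucuaccuaa
Both 3p arms share the seed AACAAAU, and neither this seed nor the seed GGAAGAC of miR-7-5p was found in any of the other mature miRNAs among the 2370 names of the reference. Counted from the 5′ end, miR-7-1-3p and miR-7-2-3p were identical at 18 of 22 bases (81.8%). They differed by A10C, G17A, A20U and U21A, with the base of miR-7-1-3p given first.

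The gene of miR-7-1 lies at chr9:83969748-83969857 within the limits of HNRNPK, which encodes an RNA-binding protein. The gene of miR-7-2 lies at chr15:88611825-88611934, overlapped by AEN and by the miRNA gene MIR3529, and that of miR-7-3 at chr19:4770670-4770779 within the non-coding gene MIR7-3HG. The 5p sequence was found without a difference in the hairpins of miR-7-2 and miR-7-3 (24 of 24 bases). The part of the miR-7-3 hairpin that lines up with miR-7-1-3p is shown here with the bases that differ in capitals, since no 3p arm of that precursor is among the members.
miR-7-3 hairpin, chr19:4770738-4770759, plus strand: caacaaGucacagCcGgccUCa
It differed from miR-7-1-3p at 5 of 22 bases.

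The authors assigned a read to a miRNA when exact matches of at least 7 bases covered at least 17 bases. A full-length copy of miR-7-1-3p has a single such match to miR-7-2-3p, of 9 bases, and the same holds in the other direction, so by this rule intact reads of one 3p arm were not countable on the other. The stretch of miR-7-3 had no match of 7 bases to any member. No other mature miRNA of the reference met the rule for an intact copy of a member. MIR3529 is encoded on the opposite strand of the miR-7-2 gene, and its arms did not meet the rule either. miR-3529-3p had between 8 and 362 reads in a library and miR-3529-5p between 5 and 167.

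The m6A motif in its short form, AAC or GAC, was searched on the mature strand only. It occurs once in each member, at bases 6 to 8 of miR-7-5p and at bases 2 to 4 of both 3p arms, and in 855 of the 2370 mature miRNAs of the reference (36.1%). The longer form, a purine, a purine, A, C and then A, C or U, occurs in miR-7-5p alone, as AGACU at bases 5 to 9, where it contains the short match and overlaps the seed. In the reference 491 mature miRNAs hold it (20.7%).

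The libraries held between 1991317 and 3876806 miRNA reads in the knockdown experiment and between 186446 (IgG of FTO3C3) and 4973238 (m6A of FTO3C3) in the immunoprecipitation. Levels are given as reads per 1000000 miRNA reads (RPM), with no correction for length, since a read stands for a whole mature miRNA. One read was worth between 0.201 and 5.36 RPM. A single miRNA, miR-6080, held 15.5% to 71.6% of the reads in the immunoprecipitation and 2.05% to 4.18% in the knockdown. Its count was 563404 in both the m6A and the IgG library of FTO2D4, whose totals differ (1362780 and 786688 reads). Whether 1 of these counts was copied from the other was not tested. A copied count would make a total, and with it every RPM value and ratio of FTO2D4 that uses it, wrong, so values without FTO2D4 or without miR-6080 are given beside the calls they bear on. The summed level of 7 miRNAs typical of HEK293 was between 370753 and 468887 RPM in the siRNA groups, between 148403 and 237109 in input, between 89868 and 116223 in m6A and between 1016 and 2435 in IgG. Of the markers of other cell types, the liver miRNA miR-122-5p had at most 7.03 RPM in the siRNA groups and was not listed for the immunoprecipitation, and 4 blood-cell miRNAs summed to at most 114 RPM after siRNA, between 439 and 873 in input, between 794 and 1962 in m6A and between 66.1 and 72.5 in IgG. Of 4 muscle names, 3 were listed in the knockdown and summed to between 18.7 and 32.5 RPM, and 2 in the immunoprecipitation, with 13.3 to 22.6 RPM in input, 40.4 to 103 in m6A and 12.1 to 42.9 in IgG. The islet miRNA miR-375 had between 167.5 and 460 RPM in the input and scrambled siRNA libraries, and thus more than miR-7-5p in each of those groups.

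miR-7-5p was a low-abundance miRNA in these cells. As each library pools many cells, fewer cells with a miRNA and less of it per cell cannot be told apart. It had 47, 33 and 36 reads in the input of FTO1C1, FTO2D4 and FTO3C3, or 33.4, 22.6 and 24.0 RPM, and ranked between 635 and 956 among 2189 miRNAs. With scrambled siRNA it had 79, 59 and 160 reads, or 21.7, 23.9 and 80.3 RPM. FTO3C3 stood apart in that group, above the counting interval of either other line (68.4 to 93.8 RPM for FTO3C3, at most 30.9 for the others, exact Poisson, 95%).

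miR-7-1-3p was the most abundant arm in input. It had 581, 263 and 727 reads there, or 412, 180 and 485 RPM, and ranked between 110 and 235. In the scrambled siRNA libraries it had 101, 89 and 56 reads, or 27.8, 36.1 and 28.1 RPM, and ranked between 594 and 820 among 2418 miRNAs. The lowest input value was thus well above the highest value with scrambled siRNA, although both are libraries of small RNA that was not precipitated. The experiment, the transfection and the culture differ together between them, so their parts cannot be told apart, and no test was run across the tables.

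miR-7-2-3p was present at more similar levels in both experiments. In input it had 128, 101 and 93 reads, or 90.9, 69.2 and 62.0 RPM. With scrambled siRNA it had 171, 140 and 104 reads, or 47.0, 56.8 and 52.2 RPM. The ranges did not overlap, and the highest scrambled siRNA value lay just under the lowest input value. Over the 5 groups the mean level of miR-7-2-3p was highest in m6A (166 ± 12.8 RPM, SD, n = 3), followed by input (74.0 ± 15.03), FTO siRNA (62.6 ± 12.1), scrambled siRNA (52.0 ± 4.91) and IgG (29.2 ± 8.0). Input and FTO siRNA, and FTO siRNA and scrambled siRNA, overlapped between libraries. The order for miR-7-1-3p was input (359 ± 159 RPM), IgG (193 ± 27.7), m6A (119 ± 22.9), FTO siRNA (31.0 ± 1.61) and scrambled siRNA (30.7 ± 4.73), where input overlapped with IgG and the siRNA groups overlapped with each other. That for miR-7-5p was IgG (42.5 ± 16.8 RPM), scrambled siRNA (42.0 ± 33.2), m6A (35.3 ± 8.67), input (26.7 ± 5.85) and FTO siRNA (12.0 ± 1.45), and every neighbouring pair except input and FTO siRNA overlapped.

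**Figure D1:**
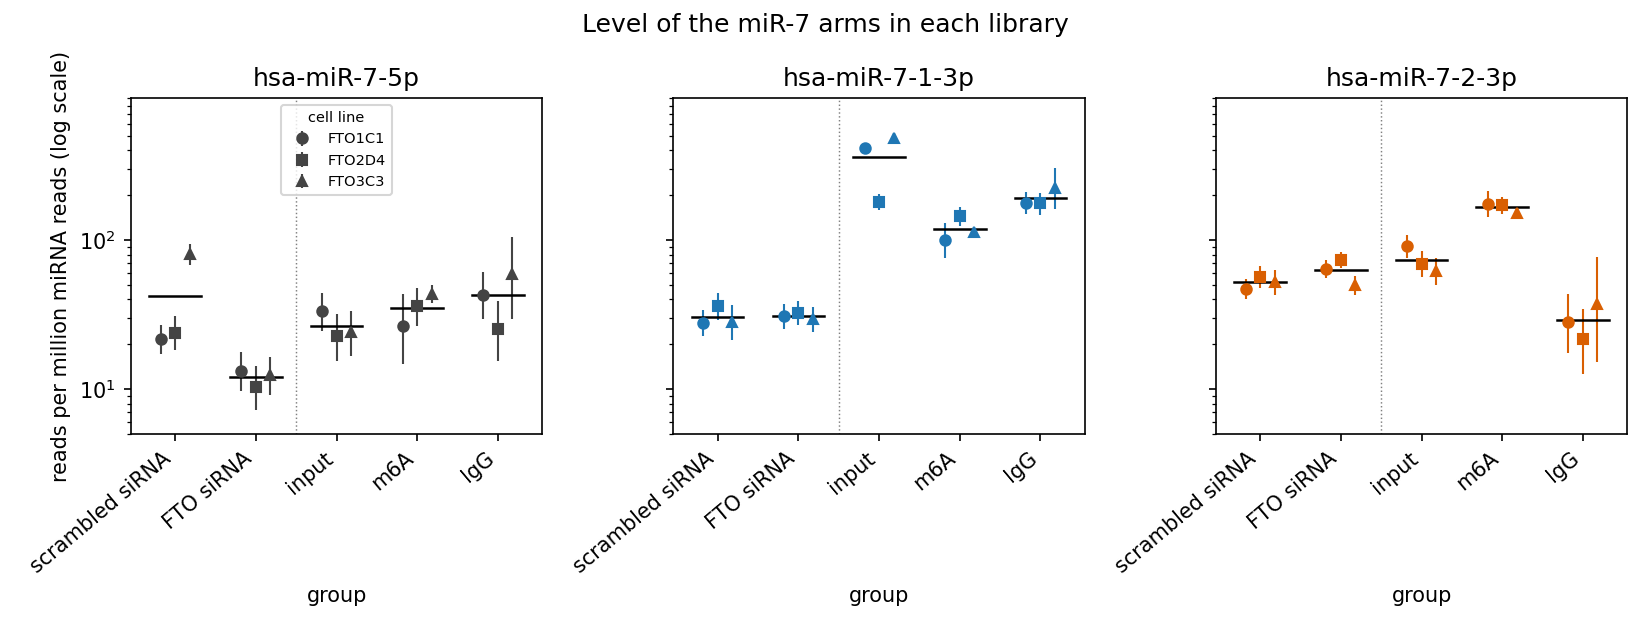
Level of miR-7-5p, miR-7-1-3p and miR-7-2-3p in RPM (vertical, log scale) in each of 15 libraries by group (horizontal); symbols are the cell lines, vertical lines the 95% Poisson intervals of the counts, horizontal lines the group means, and the dotted line separates both experiments. miR-7-1-3p lies at 180 to 485 RPM in input against 27.8 to 36.1 with scrambled siRNA, and miR-7-2-3p is highest in the m6A libraries, at 151 to 176 RPM.

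The 3p arms together outnumbered the 5p arm in every library but the scrambled siRNA library of FTO3C3. There miR-7-5p made up 160 of the 320 miR-7 reads, or 50.0% (95% exact binomial interval 44.4 to 55.6), against 22.5% in FTO1C1 and 20.5% in FTO2D4. In input it made up 6.22%, 8.31% and 4.21%. Intervals of counts and shares cover counting error only, since PCR reads without molecular identifiers are not independent molecules.

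Other miRNAs built in this way, with a shared arm and at least 2 numbered opposite arms, numbered 10 families in the immunoprecipitation and 12 in the knockdown table. In input the numbered arms summed to more than the shared arm in 2 of the 10, and the median ratio was 0.372, while that of miR-7 was 16.2. With scrambled siRNA it was so in 4 of 12, with a median of 0.320 and a ratio of 1.97 for miR-7. In the IgG libraries, 6 of the 10 families had more reads on their numbered arms, as in m6A.

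The m6A and IgG libraries were compared to see which miRNAs the m6A antibody recovered beyond an isotype control. miR-7-2-3p was higher after precipitation with the m6A antibody, miR-7-5p did not pass the test, and miR-7-1-3p was lower in all 3 lines without passing it. The m6A libraries of FTO1C1, FTO2D4 and FTO3C3 held 100, 233 and 753 reads of miR-7-2-3p, or 176, 171 and 151 RPM. Those of IgG held 21, 17 and 7 reads of it, or 28.3, 21.6 and 37.5 RPM. All m6A values lay above all IgG values, with ratios of 6.20, 7.91 and 4.03 (mean 6.05 ± 1.94, SD, n = 3). Fitted over all miRNAs with edgeR, its log2 fold change came to 2.59 (SE 0.37, 95% interval 1.75 to 3.43, edgeR adjusted p = 0.000659). Of the 2054 miRNAs tested 39.8% were called, 38.6% as higher and 1.27% as lower. Their median lay at 0.83 on the log2 scale, and miR-7-2-3p was 1.76 above it. It stayed higher and called with totals without miR-6080 (1.89, edgeR adjusted p = 0.00358) and without FTO2D4 (2.36, edgeR adjusted p = 0.0261).

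miR-7-1-3p, which shares its seed, had 57, 197 and 560 reads in m6A, or 100.1, 145 and 113 RPM. In IgG it had 132, 139 and 42 reads, or 178, 177 and 225 RPM. Every m6A value was below every IgG value, with ratios of 0.562, 0.818 and 0.50. The fitted log2 fold change of -0.70 (SE 0.31, 95% interval -1.40 to 0.0020) missed the threshold (edgeR adjusted p = 0.104), and stood at -1.53 relative to the median of all miRNAs. With TMM factors, totals without miR-6080 or DESeq2, which bring that median to 0.06, 0.10 and 0.04, it was -1.44, -1.38 and -1.48 and passed the test (adjusted p = 0.00506, 0.00887 and 0.00111). On the scale of total miRNA reads it did not pass without FTO2D4 (-0.92, edgeR adjusted p = 0.141). Nor did it pass without FTO1C1 (-0.63, edgeR adjusted p = 0.279) or without FTO3C3 (-0.55, edgeR adjusted p = 0.296). miR-7-5p had 15, 49 and 217 reads in m6A against 32, 20 and 11 in IgG, or 26.3, 36.0 and 43.6 RPM against 43.2, 25.4 and 59.0. Its groups overlapped, and FTO2D4 was the line in which m6A was higher. Its fitted value was -0.19 on the log2 scale (SE 0.39, 95% interval -1.08 to 0.69, edgeR adjusted p = 0.727), and without FTO1C1 it was 0.06. With TMM factors, totals without miR-6080 and DESeq2 it came to -0.94, -0.88 and -0.98, which did not pass either (adjusted p = 0.0717, 0.0783 and 0.131).

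Against input, miR-7-1-3p was lower and miR-7-2-3p higher in the m6A libraries on the scale of total miRNA reads. The ratios of miR-7-1-3p were 0.243, 0.802 and 0.232, which gave -1.50 on the log2 scale (SE 0.43, edgeR adjusted p = 0.00271). Those of miR-7-2-3p were 1.93, 2.47 and 2.44, which gave 1.18 (SE 0.39, edgeR adjusted p = 0.00768). Here 77.3% of the 2174 miRNAs tested were called, 66.8% as higher and 10.5% as lower, and their median was 1.65 on the log2 scale. Relative to that median miR-7-2-3p was at -0.47, miR-7-5p at -1.21 and miR-7-1-3p at -3.15. The rise of miR-7-2-3p thus depends on the scale. With TMM factors it was -0.36 (adjusted p = 0.309) and with DESeq2 -0.39 (adjusted p = 0.388), whereas miR-7-1-3p stayed lower at -3.05 and -3.08. Totals without miR-6080 moved both the other way, to 1.64 for miR-7-2-3p (edgeR adjusted p = 0.000828) and -1.03 for miR-7-1-3p (edgeR adjusted p = 0.0382). Without FTO2D4 miR-7-2-3p was at 1.12 (edgeR adjusted p = 0.0590) and miR-7-1-3p at -2.07 (edgeR adjusted p = 0.00168). Without FTO3C3 the edgeR adjusted p of miR-7-1-3p was 0.0511. miR-7-5p had ratios of 0.789, 1.59 and 1.82 and a fitted value of 0.44 (95% interval -0.34 to 1.22, edgeR adjusted p = 0.289), which TMM factors turned to -1.11 (edgeR adjusted p = 0.0180) and DESeq2 to -1.15 (adjusted p = 0.0236), both past the threshold. With totals without miR-6080 it moved the other way, to 0.90, and did not pass (edgeR adjusted p = 0.0565). The direction for miR-7-5p thus depends on the scale.

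IgG against input gives the background of the precipitation without the m6A antibody. miR-7-2-3p was lower in IgG in all 3 lines, with ratios of 0.312, 0.312 and 0.606. The fit put it at -1.42 on the log2 scale (SE 0.51, edgeR adjusted p = 0.0108). Of the 1941 miRNAs tested 58.6% were called, 21.8% as lower and 36.8% as higher. The call was lost with totals without miR-6080 (-0.28, adjusted p = 0.589), without FTO1C1 (adjusted p = 0.185) and without FTO2D4 (adjusted p = 0.0769). The ratios of miR-7-1-3p were 0.432, 0.981 and 0.465 (-0.78 on the log2 scale, SE 0.42, edgeR adjusted p = 0.0971), and did not pass. It passed with TMM factors (-1.34, adjusted p = 0.00441), with DESeq2 (-1.40, adjusted p = 0.00420), without the cell line as a block (-0.91, adjusted p = 0.0476) and without FTO2D4 (-1.16, adjusted p = 0.0471). Totals without miR-6080, whose share was 58.0% to 71.6% in IgG and 15.5% to 28.4% in input, turned it to 0.36 (adjusted p = 0.417). miR-7-5p was higher in IgG in all 3 lines, at 1.29, 1.12 and 2.46 times input, but the groups overlapped and its fitted value of 0.58 had a 95% interval of -0.40 to 1.55 (edgeR adjusted p = 0.328). With totals without miR-6080 it was 1.71 and passed (edgeR adjusted p = 0.000438), while DESeq2 gave -0.017.

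**Figure D2:**
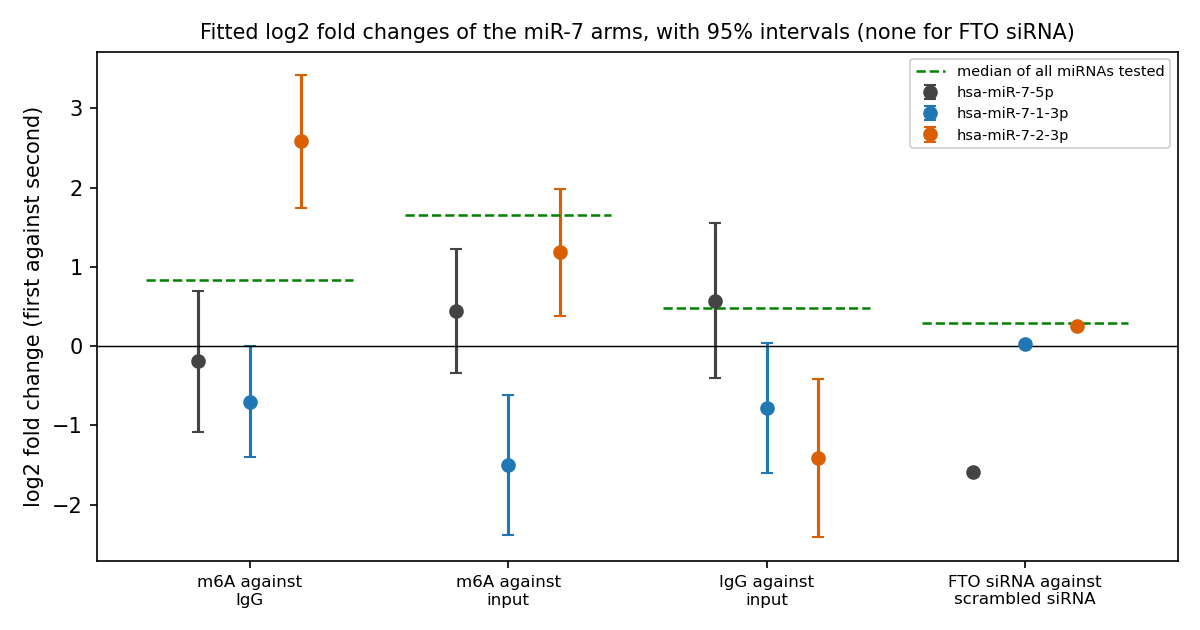
Log2 fold change of the 3 miR-7 arms (vertical) in 4 comparisons (horizontal), n = 3 cell lines per group, with 95% intervals of the edgeR fit except for FTO siRNA, shown as a description; the dashed line is the median of all miRNAs tested in each comparison. miR-7-2-3p is at 2.59 for m6A against IgG, above the median of 0.83, while miR-7-1-3p is at -0.70; for m6A against input miR-7-2-3p, at 1.18, lies below the median of 1.65.

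The balance between the arms within a library does not depend on its total or on miR-6080. For each read of miR-7-1-3p there were 1.75, 1.18 and 1.34 reads of miR-7-2-3p in the m6A libraries. In IgG there were 0.159, 0.122 and 0.167, and in input 0.220, 0.384 and 0.128. miR-7-2-3p was thus the more frequent 3p arm in all 3 m6A libraries, and miR-7-1-3p in all 6 other libraries of the experiment. In the siRNA libraries, from which nothing was precipitated, the ratio was between 1.57 and 2.27, overlapping that of the m6A libraries. On the log2 scale, with 0.5 reads added, m6A differed from IgG by 3.20 ± 0.25 (SD of the within-line differences, n = 3) and from input by 2.66 ± 0.93. In both comparisons the libraries did not overlap (exact permutation test, two-sided, p = 0.1, the smallest that 3 against 3 libraries allow). IgG and input overlapped, with a difference of -0.54 ± 1.04 (exact permutation test, p = 0.4). This ratio was taken up after the counts had been seen.

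Set against the 5p arm, the differences of the 3p arms between m6A and either other group had opposite signs. The log2 ratio of miR-7-2-3p to miR-7-5p was 2.24 ± 0.45 in m6A, 1.46 ± 0.12 in input and -0.48 ± 0.22 in IgG, and each pair of groups was fully separated (exact permutation tests, p = 0.1 each). That of miR-7-1-3p to miR-7-5p was 1.75 ± 0.34 in m6A, 3.64 ± 0.67 in input and 2.23 ± 0.47 in IgG. Input was separate from m6A and from IgG (exact permutation tests, p = 0.1 each), while m6A and IgG overlapped (p = 0.3, exact permutation test). With both 3p arms summed, the log2 ratio to the 5p arm was 3.02 ± 0.39 in m6A, 3.95 ± 0.52 in input and 2.43 ± 0.44 in IgG, and m6A did not separate from IgG (difference 0.59, p = 0.2, exact permutation test). As miR-7-2-3p was already listed as enriched over IgG, its ratio to miR-7-5p in that comparison is a second look at the same counts. It is not an independent check, and the permutation tests here cannot give a smaller p than 0.1.

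**Figure D3:**
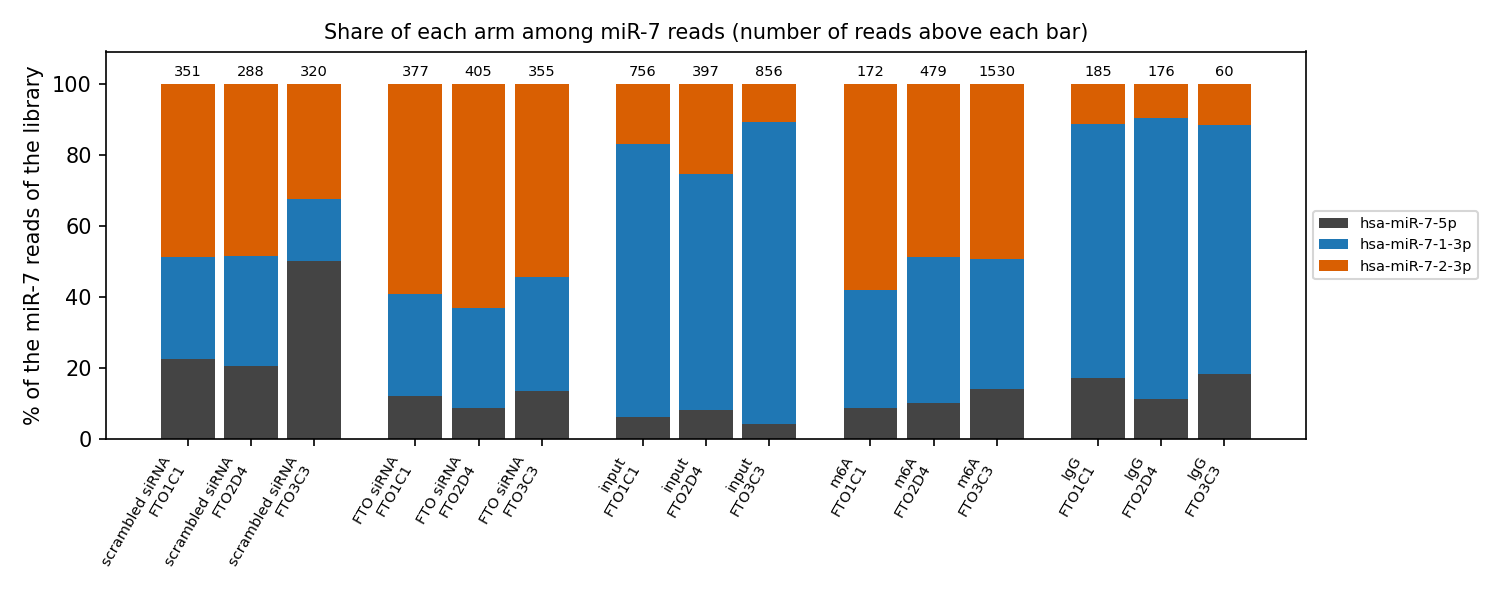
Share of miR-7-5p, miR-7-1-3p and miR-7-2-3p among the miR-7 reads of each library (vertical, %), with the number of reads above each bar, for 15 libraries ordered by group and cell line (horizontal). miR-7-1-3p holds 66.2% to 84.9% of the reads in input and 70.0% to 79.0% in IgG, and miR-7-2-3p 48.6% to 58.1% in m6A.

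The other families built like miR-7 show how far numbered arms of one family can part. For m6A against IgG the log2 fold changes of both miR-7 3p arms were 3.29 apart. Between the arms of 9 other pairs this distance ranged from 0.53 to 3.07, with a median of 1.47. For m6A against input the miR-7 arms were 2.68 apart, and the 10 other pairs between 0.04 and 4.45 with a median of 1.39, where the pair of miR-125b was above that of miR-7. For IgG against input the miR-7 arms were 0.64 apart, and 7 of 8 other pairs were further apart. These distances were set side by side after the values had been seen, and were not tested. Against IgG, 5 of 8 tested shared arms and 10 of 19 tested numbered arms of the other families were called higher, beside 38.6% of all miRNAs, with medians of 1.55 and 1.29 beside the 0.83 of all. The lowest of these arms were at -0.24 and -0.35. Against input, 7 of 10 shared arms were called lower and 1 higher (median -1.65), and 11 of 20 numbered arms higher and 1 lower (median 1.26). Of all miRNAs 66.8% were called higher and 10.5% lower there (median 1.65).

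**Figure D4:**
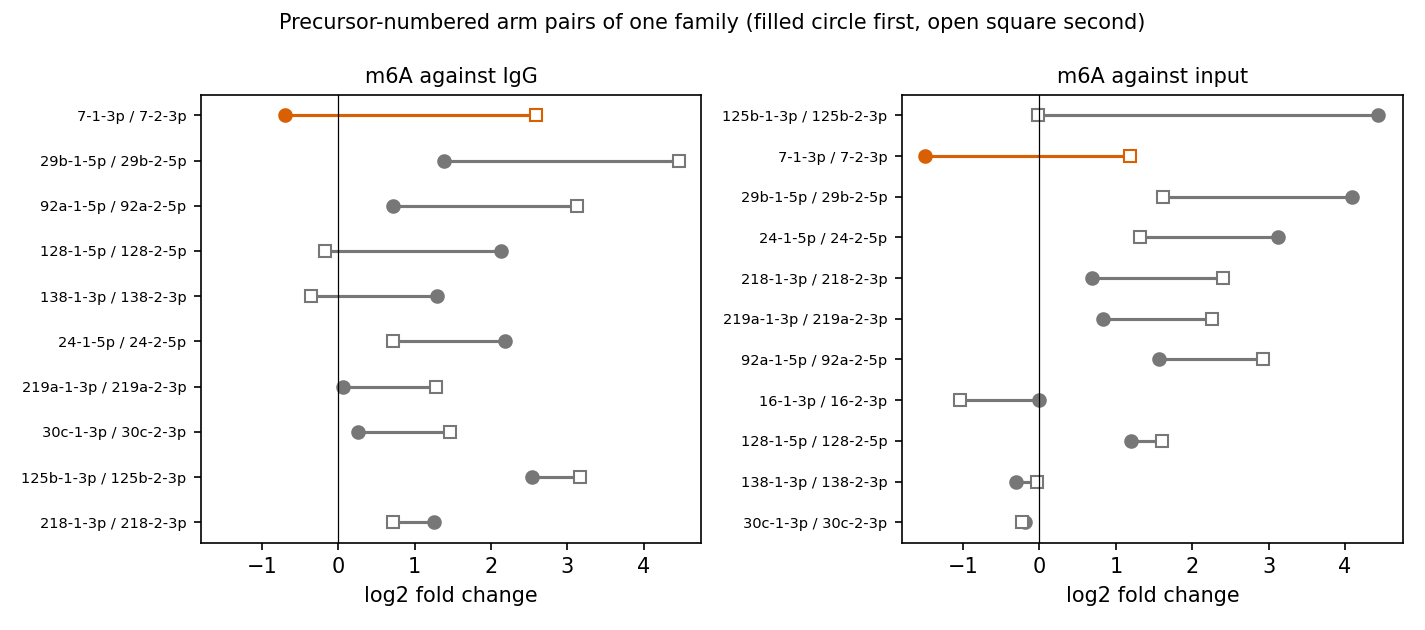
Log2 fold change (horizontal) of both precursor-numbered arms in each family with a shared opposite arm (vertical, 1 line per pair), for m6A against IgG and m6A against input; filled circles are the first and open squares the second arm named, and miR-7 is in orange. The miR-7 arms are 3.29 apart on the left, against a median of 1.47 for the 9 other pairs, and 2.68 apart on the right, against 1.39 for 10 other pairs.

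Of 12 miRNAs known from neural or endocrine cells, 5 were called higher for m6A against IgG, near the 38.6% of all miRNAs, with a median of 1.18 on the log2 scale. miR-219a-5p, known from myelinating glia, was the highest of them at 3.68 and the neuronal miR-124-3p the lowest at -0.54, which did not pass the test (edgeR adjusted p = 0.456). For m6A against input 3 were called higher and 7 lower, beside 66.8% and 10.5% of all miRNAs. For IgG against input, in which 11 were tested, 1 was called higher and 9 lower, beside 36.8% and 21.8%. After FTO siRNA the 12 lay between -0.55 and 0.90 with a median of -0.09, and the smallest edgeR adjusted p among them was 0.0546.

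In the knockdown miR-7-5p was lower in all 3 lines, while the ranges of both 3p arms overlapped between the groups. It had 46, 36 and 48 reads after FTO siRNA, or 13.2, 10.4 and 12.4 RPM, below all 3 scrambled siRNA libraries (21.7, 23.9 and 80.3 RPM). In that comparison 5.48% of the 2374 miRNAs tested were called, 4.97% as higher and 0.505% as lower, and nothing is read from this for miR-7-5p, which was chosen with that result known. Its fitted value was -1.58 on the log2 scale (SE 0.34), and without FTO3C3, the line with the high scrambled value, it was -0.94. miR-7-1-3p had 108, 113 and 114 reads after FTO siRNA, or 31.0, 32.6 and 29.4 RPM, within the range with scrambled siRNA (27.8, 36.1 and 28.1 RPM). The ratios were 1.12, 0.903 and 1.05 and the fitted value 0.03 (SE 0.19). miR-7-2-3p had 223, 256 and 193 reads, or 64.1, 73.9 and 49.8 RPM, against 47.0, 56.8 and 52.2 RPM. FTO1C1 and FTO2D4 were higher after FTO siRNA (ratios 1.36 and 1.30) and FTO3C3 was not (0.953), and the fitted value was 0.26 (SE 0.20), close to the median of 0.29 over all miRNAs.

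Within the libraries, the reads of both 3p arms per read of miR-7-5p numbered 3.44, 3.88 and 1.00 with scrambled siRNA and 7.20, 10.3 and 6.40 after FTO siRNA. From scrambled to FTO siRNA this ratio moved by 1.06, 1.39 and 2.66 on the log2 scale, in the order FTO1C1, FTO2D4, FTO3C3, so the largest shift was in the line with the high scrambled value. The balance of the 3p arms was between 1.57 and 1.86 reads of miR-7-2-3p per read of miR-7-1-3p before and between 1.69 and 2.27 after knockdown, which overlap. With TMM factors or DESeq2, which bring the median of all miRNAs to -0.00035 and -0.00039, miR-7-1-3p stood at -0.27 with either and miR-7-2-3p at -0.04 with either, while miR-7-5p stayed lower. Among the other families 1 of 12 shared arms and 1 of 24 numbered arms were called lower after FTO siRNA by edgeR, beside 0.505% of all miRNAs. Their medians were -0.19 and 0.23, beside 0.29 for all miRNAs.

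The miRNAs whose level over all 15 libraries was most like that of each member were taken from 1230 miRNAs with a mean of at least 15 RPM in each table, by Pearson's r of log2(RPM + 1). The libraries share cell lines, totals and the jump between the experiments, so r is a description and carries no p. For miR-7-1-3p they were miR-4768-3p (r = 0.98), miR-503-5p (0.97) and miR-212-3p (0.96). miR-4768-3p had 262 ± 76.0 RPM in input against 19.1 ± 2.14 with scrambled siRNA, and miR-212-3p 4004 ± 2137 against 21.1 ± 5.06, so both were higher in input, as miR-7-1-3p was. For miR-7-2-3p they were miR-1246 (0.94), miR-4652-3p (0.93) and miR-3176 (0.93). By group means all 3 were highest in m6A and lowest in IgG, as in miR-1246, with 3370 ± 1897 RPM in m6A and 47.5 ± 20.9 in IgG. These miRNAs and those like miR-7-1-3p were picked by likeness over the same libraries. Their shared pattern was thus favoured by the choice and is no separate result. For miR-7-5p the likeness was weaker, with miR-4683 (0.71), miR-4669 (0.70) and miR-197-3p (0.69). These had 209, 39.7 and 37.7 RPM in the scrambled siRNA library of FTO3C3. In the scrambled siRNA libraries of the other lines they had at most 54.4, 9.33 and 13.8 RPM. That library was among the 15 used to choose them, so a high value there was favoured by the choice and is no separate result. Between the members r was 0.35 for miR-7-5p and miR-7-1-3p, -0.02 for miR-7-5p and miR-7-2-3p, and 0.04 for both 3p arms.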

How the data were processed

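Small RNA of 3 cell lines was sequenced in 15 libraries. The authors clipped adapter sequence using cutadapt, used reads 16 to 28 bases long, and assigned them by maximal exact matches to mature sequences of miRBase release 20. The deposited values are raw counts for each mature miRNA, 2418 in the knockdown table and 2189 in that of the immunoprecipitation, without alignment to a genome. Coordinates and sequences came from RefSeq (GRCh38.p14), in which miR-7-5p is 24 bases long.

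From the counts, RPM of total miRNA reads were computed. edgeR's quasi-likelihood test (library size equal to total miRNA reads, cell line as a block, filterByExpr with a minimum count of 10, both groups of a comparison only) was adjusted by Benjamini-Hochberg at 0.05 over all miRNAs tested. Standard errors were taken from the fold change and its F statistic. The edgeR fit was also run on simulated data with 200 changed miRNAs, raised and lowered in equal number. These data held no difference between lines and no shift of most miRNAs in the same direction. They therefore do not show how the fit behaves where such a shift is present. Ratios of arms were compared by exact permutation tests without pairing by line. The members and lists were chosen with earlier results of these data known. Named miRNAs were the members, the 3 most like each, and the highest and lowest of a list; miR-3529, miR-125b and miR-6080 were added after their values were seen. Alternatives were TMM factors, totals without miR-6080, DESeq2, no filter, no block, all 9 immunoprecipitation libraries in 1 fit, each line left out, each 3p arm alone, 1 count added to arm reads, and another pseudocount or minimum level for likeness.

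The cell line pairs libraries, since each line gave 1 library per group. The deviations of a line's libraries from the means of their groups had correlations of 0.189, 0.121 and 0.160 in the knockdown and of -0.0711 to 0.0661 in the immunoprecipitation. No library was a copy of another of its group, since chi-square values per degree of freedom were 7.79 or higher. Versions were R 4.3.3, edgeR 4.0.16, DESeq2 1.42.0, Python 3.11.15, scipy 1.17.1 and matplotlib 3.10.9. FTO mRNA was not analysed here.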

Additional observations from a re-analysis of the deposited data

How the results depend on the processing

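Of 205 alternative values, 152 kept their direction and their side of the threshold or stayed within the limit for a count. The others are given here, and the cause was not tested.

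For m6A against IgG, miR-7-2-3p stayed higher and called under every alternative run, and miR-7-1-3p came to -1.44, -1.38 and -1.48 with TMM factors, totals without miR-6080 and DESeq2. With these, 453, 446 and 367 miRNAs were called higher and 302, 257 and 249 lower, against 792 and 26. With 1 line left out, 456 (without FTO2D4) to 710 were called higher and 3 (without FTO3C3) to 20 lower, 14 of them lower without FTO2D4, and miR-7-5p ranged from -0.57 to 0.056. The 3p to 5p balance with miR-7-1-3p alone was -0.48.

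For m6A against input, TMM factors and DESeq2 gave -1.11 and -1.15 for miR-7-5p, -0.36 and -0.39 for miR-7-2-3p, 575 and 491 miRNAs called higher, and 614 and 592 lower, against 1452 and 229. Totals without miR-6080 gave 147 lower. With 1 line left out, miR-7-1-3p ranged from -2.07 to -1.16 and miR-7-2-3p from 1.12 to 1.30. The balance with miR-7-2-3p alone was 0.78.

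For IgG against input, totals without miR-6080 gave 1.71 for miR-7-5p, which then passed the test, 0.36 for miR-7-1-3p and -0.28 for miR-7-2-3p, with 1231 miRNAs called higher and 273 lower, against 714 and 423. DESeq2 gave -0.017 for miR-7-5p, -1.40 for miR-7-1-3p and 447 called higher, and TMM factors -1.34 for miR-7-1-3p, which passed with both. With 1 line left out, miR-7-1-3p ranged from -1.16 to -0.55 and miR-7-2-3p from -1.68 to -1.24.

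For FTO siRNA against scrambled siRNA, TMM factors and DESeq2 gave -0.27 and -0.27 for miR-7-1-3p, -0.036 and -0.040 for miR-7-2-3p, 21 and 32 miRNAs called higher, and 34 and 57 lower, against 118 and 12. With 1 line left out, 0 (without FTO1C1) to 191 (without FTO3C3) were called higher and 0 (without FTO1C1) to 39 (without FTO2D4) lower by edgeR. Without FTO1C1, 327 had an unadjusted p under 0.05. miR-7-5p ranged from -2.004 to -0.94.

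Without the cell line as a replicate block, miR-7-1-3p came to -0.91 for IgG against input, and 37 miRNAs were called higher and 4 lower after FTO siRNA. It changed no other call of a member, and moved no other count of calls by over 1.5 times. Depth limits the IgG library of FTO3C3 most, in which the members had 7 to 42 reads.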
